A study of Mus musculus with 6 samples.

Results

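The cell cycle inhibitors and senescence genes described here were 9 genes: the cyclin-dependent kinase (CDK) inhibitors Cdkn1a, Cdkn1b, Cdkn2a, Cdkn2b and Cdkn2c, the D-type cyclins Ccnd1 and Ccnd2, the transcription factor gene Trp53, and Mdm2, whose product degrades the p53 protein. They were chosen by name, with earlier results of these data known, and their probes were found by the accession that the array gives for each probe. The array held 12 probes for them, of which 10 passed the filter on dim signal, and all 9 genes, each well above background on all 6 arrays, were among the 20900 genes tested. Gastrocnemius muscle of male C57BL/6J mice was measured on single-colour Agilent arrays in 3 young mice, aged 13 weeks, and 3 aged mice, aged 26 months, and no mouse carried a transgene or received a treatment. The comparison asks how messenger RNA levels in this hindlimb muscle differ with age. Each array held RNA of 1 mouse, and a level is given throughout as log2 of the processed spot signal relative to the 75th percentile of its own array, so that 0 is the signal of the 75th percentile.

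A cell enters the division cycle when D-type cyclins activate CDK4 and CDK6, which phosphorylate the retinoblastoma protein and release E2F transcription factors. The Ink4 inhibitors (products of Cdkn2a, Cdkn2b and Cdkn2c) bind these kinases directly, the Cip/Kip inhibitors p21 (Cdkn1a) and p27 (Cdkn1b) act on cyclin-CDK complexes more broadly, and p53 induces p21 and its own antagonist Mdm2. Cdkn2a, which encodes p16Ink4a and p19Arf from alternative first exons, is widely used as a marker of senescence, the stable arrest that cells enter with age or damage, and p21 is also expressed in muscle fibres, which no longer divide.

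All 6 arrays came from 1 slide and 1 scan. Row 1 of the slide held the 3 young mice and aged mouse 1. Row 2 held only aged mice 2 and 3, so the rows did not hold the ages evenly. Probes well above background, by the flag of the scanner software, made up 49.2% to 50.7% of the probes in young mice and 48.7% to 53.8% in aged mice, no spot was saturated, and the 75th percentile of the processed signal ranged from 243 to 368 fluorescence units. The 8 muscle fibre markers examined (among them Acta1, Ckm and Myh4) were well above background on every array. Since whole muscle was measured, a lower level from fewer cells of a type and one from less RNA per cell cannot be told apart.

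In aged muscle Cdkn2a rose 6.30-fold, and it was the 1 gene among the 9 that passed the test (limma, adjusted p under 0.05 over all genes). Over all genes tested 0.191% passed as higher and 0.0574% as lower, or 0.249% in either direction. The means of 6 of the 9 genes were higher in aged mice and those of 3 were lower, with a median log2 fold change of 0.39 against -0.08 over all genes. Over all 20900 genes, 8622 had higher and 12278 had lower means in aged mice. In 5 of the 9 genes the 3 aged mice did not overlap with the 3 young mice: Cdkn1a, Cdkn2a and Trp53 lay higher, and Cdkn1b and Ccnd2 lay lower. Such separation was seen in 22.3% of all genes (7.38% higher and 14.9% lower), and 5 of the 9 had an unadjusted p under 0.05 against 14.7% of all genes. Since the 9 genes were chosen with earlier results known, these counts are descriptions.

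**Figure D1:**
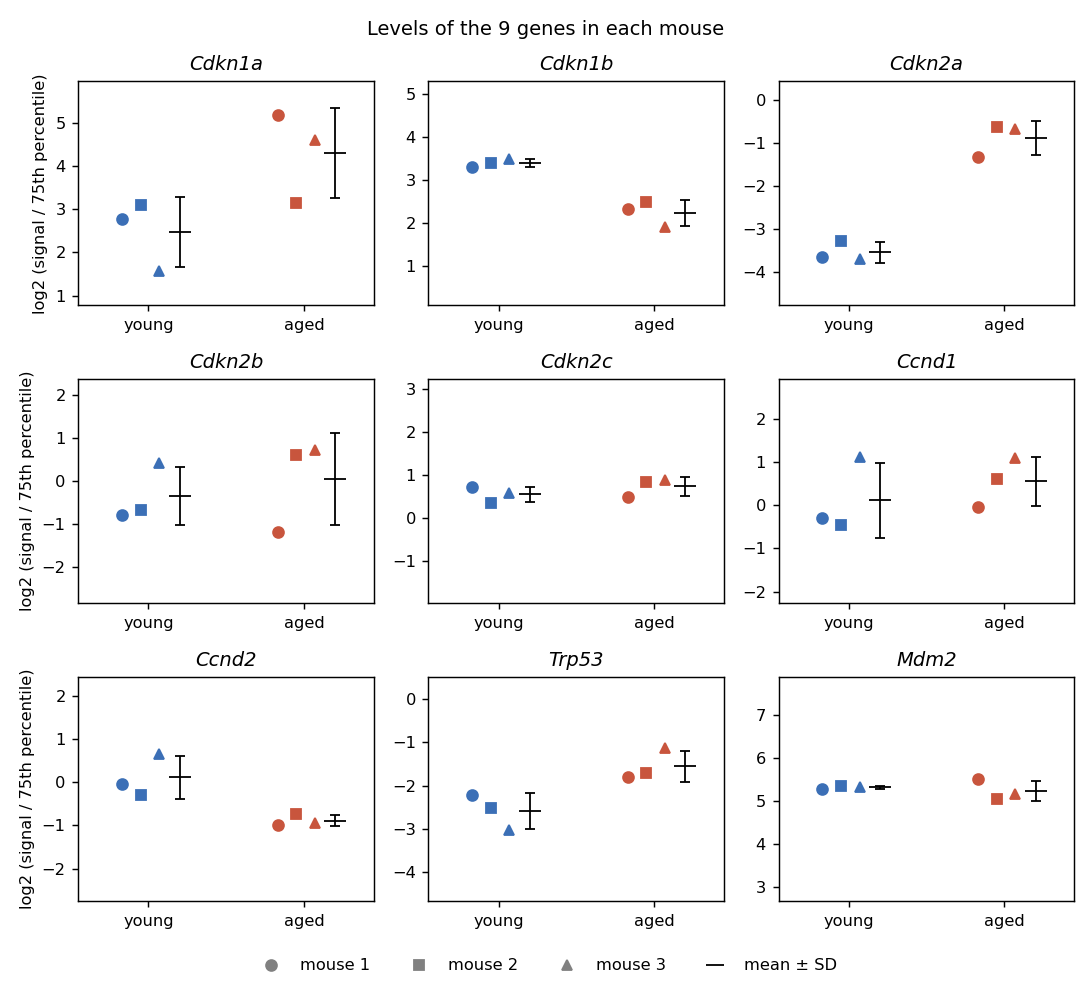
Level of each of the 9 genes in each mouse, as log2 of the signal relative to the 75th percentile of the array (vertical axis, the same span in every panel), with 3 young mice in blue, 3 aged mice in red, a symbol for each mouse number within its group (equal numbers do not mark the same animal) and the mean with SD in black. Cdkn2a lay between -3.70 and -3.27 in young mice and between -1.33 and -0.64 in aged mice, Cdkn1b was lower in every aged mouse, and Cdkn2b, Cdkn2c, Ccnd1 and Mdm2 overlapped between the groups.

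The 250 bases before start sites of the 3 inhibitor genes with the largest differences are printed to show how differently these genes begin. Cdkn2a has 2 start sites, for its alternative first exons. Cdkn1a also has 2, of which start 1 holds matches to the p53 half-site and start 2 is not printed. Cdkn1b holds neither p53 half-sites nor E2F sites. Sequences are from RefSeq on GRCm38.p6, 5′ to 3′ on the strand of the gene, ending at the base before the start site. Capitals mark motif matches. Cdkn2a start 1 is chr4:89294620-89294869 (minus strand), Cdkn2a start 2 is chr4:89282193-89282442 (minus strand), Cdkn1a start 1 is chr17:29090729-29090978 (plus strand) and Cdkn1b is chr6:134920151-134920400 (plus strand).
Cdkn2a start 1: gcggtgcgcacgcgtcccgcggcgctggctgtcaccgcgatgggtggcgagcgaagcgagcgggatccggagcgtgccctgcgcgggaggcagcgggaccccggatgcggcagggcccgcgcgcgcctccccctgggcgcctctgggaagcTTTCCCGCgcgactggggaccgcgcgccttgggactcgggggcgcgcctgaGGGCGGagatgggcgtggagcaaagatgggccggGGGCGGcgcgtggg
Cdkn2a start 2: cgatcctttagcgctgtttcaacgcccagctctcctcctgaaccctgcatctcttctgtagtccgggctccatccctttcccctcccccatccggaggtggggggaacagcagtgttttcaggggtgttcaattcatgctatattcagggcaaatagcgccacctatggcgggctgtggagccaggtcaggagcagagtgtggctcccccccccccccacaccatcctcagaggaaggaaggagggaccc
Cdkn1a start 1: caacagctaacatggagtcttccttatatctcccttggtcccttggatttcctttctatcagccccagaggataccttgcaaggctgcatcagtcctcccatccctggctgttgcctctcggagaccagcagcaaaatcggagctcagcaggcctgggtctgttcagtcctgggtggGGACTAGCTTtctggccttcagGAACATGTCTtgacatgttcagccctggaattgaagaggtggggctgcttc
Cdkn1b: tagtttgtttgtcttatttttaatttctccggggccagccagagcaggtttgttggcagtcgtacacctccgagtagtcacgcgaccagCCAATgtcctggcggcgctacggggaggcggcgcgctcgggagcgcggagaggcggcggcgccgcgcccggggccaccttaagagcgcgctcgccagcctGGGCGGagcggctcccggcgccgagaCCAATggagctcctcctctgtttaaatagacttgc

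Both strands of these windows were searched for the p53 half-site, the TATA box TATAAA, the CCAAT box CCAAT, the GC box GGGCGG, E2F sites (TTTCCCGC, TTTCGCGC, TTTGCCGC and TTTGGCGC), the myogenic E-box CAGCTG and the FoxO site TGTTTAC. Of the 9 genes, 7 had an entry (10 start sites), and Ccnd1 and Ccnd2 had none. The window of Cdkn2a start 1 held an E2F match 99 bases before the start and 2 GC boxes, whereas that of start 2 held no match to any of these motifs. Cdkn1a start 1 held 2 p53 half-sites, 73 and 51 bases before the start, and Mdm2 and Trp53 held 1 each. Cdkn1a start 2 held 2 GC boxes and no p53 half-site. A match in letters is a description and not a site of binding: among 32851 promoter windows of the same length, 7.13% held a p53 half-site, 1.86% an E2F site, 32.7% a GC box and 33.8% a CCAAT box.

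The level of Cdkn2a, whose probe cleared background on all 6 arrays, was -3.65, -3.27 and -3.70 in young mice 1, 2 and 3 and -1.33, -0.64 and -0.68 in aged mice 1, 2 and 3. In fluorescence units before scaling, its processed signal was 28.3, 31.4 and 18.7 in the young mice and 146, 219 and 201 in the aged mice. Every aged mouse lay above every young mouse, with a gap of 1.94 on the log2 scale between the groups, and aged mouse 1 was the lowest of its group. The means were -3.54 ± 0.24 in young mice and -0.88 ± 0.39 in aged mice (SD, n = 3 each). The log2 fold change was 2.66 (SE 0.25, 95% interval 2.07 to 3.24), which is 6.30-fold (4.21 to 9.43), and the adjusted p was 0.0231 by limma. Cdkn2a ranked 13 of all 20900 genes by p.

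The young signals of Cdkn2a were close to the limit of measurement. They lay only 0.39 to 0.86 above the dimmest probe called well above background on the same array on the log2 scale, whereas the aged signals lay 2.78 to 3.63 above it. With another background correction (normexp on the raw spot signals, with an offset of 50 units added) it differed by 1.13 on the log2 scale (adjusted p = 0.0407). An added constant narrows differences between dim signals. The parts of the background correction and of the offset in this smaller value cannot be told apart. The adjusted p was 0.0575 with the row of the slide as a block, 0.0837 without the filter on dim probes, 0.0738 with replicate number as the block. It lay between 0.0852 and 0.113 without young mouse 1, 2 or 3 or without aged mouse 2 or 3. Without aged mouse 1 it was 0.0104. The log2 fold change stayed between 2.53 and 2.88 whichever mouse was left out. A second Cdkn2a probe with the same accession was not well above background on any of the 6 arrays and was not tested. The files do not say where either probe lies on the transcript, so the products p16Ink4a and p19Arf were not separated.

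**Figure D2:**
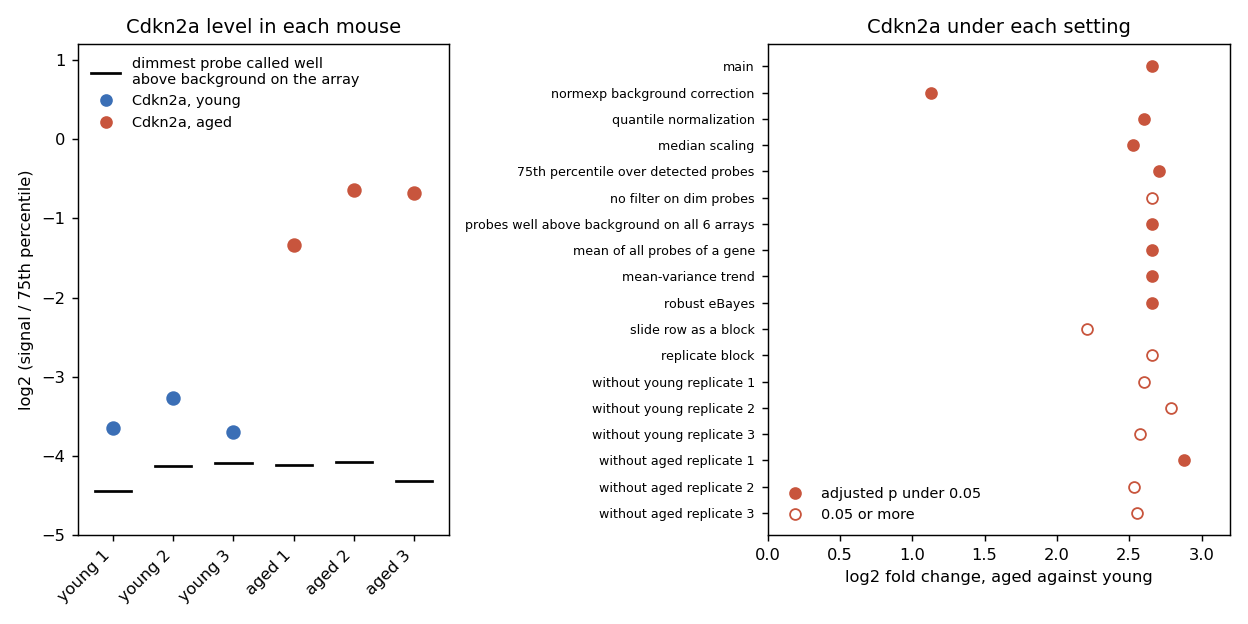
Left, the level of Cdkn2a in each mouse (points, log2 of the signal relative to the 75th percentile) above the dimmest probe called well above background on that array (bars), from 0.39 above it in young mouse 3 to 3.63 above it in aged mouse 3. Right, its log2 fold change under the main setting and each alternative that could change it (filled points, adjusted p under 0.05), from 1.13 with the normexp background correction to 2.88 without aged mouse 1.

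Cdkn2b, which lies beside Cdkn2a on the chromosome and encodes the CDK4 and CDK6 inhibitor p15Ink4b, did not pass the test. Its level was -0.79, -0.67 and 0.43 in young mice 1, 2 and 3 and -1.18, 0.61 and 0.71 in aged mice 1, 2 and 3. The groups overlapped, since aged mouse 1 was the lowest of all 6 mice and young mouse 3 lay near aged mice 2 and 3. The log2 fold change was 0.39 (SE 0.57, 95% interval -0.96 to 1.75, adjusted p = 0.772), and its second probe gave 0.30 (SE 0.38). Cdkn2c, which encodes the related inhibitor p18Ink4c, was at 0.71, 0.36 and 0.59 in young mice and 0.49, 0.85 and 0.89 in aged mice, also with overlap. Its log2 fold change was 0.19 (SE 0.19, 95% interval -0.26 to 0.64, adjusted p = 0.660). Blocking on the row of the slide sets aged mouse 1 alone against the young mice, and the values were then -0.83 for Cdkn2b and -0.06 for Cdkn2c. Differences between the 3 Ink4 genes in their response to age were not tested.

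Cdkn1a, which encodes p21, was higher on average in aged mice but varied widely within both groups. Its level was 2.77, 3.10 and 1.56 in young mice 1, 2 and 3 and 5.18, 3.16 and 4.60 in aged mice 1, 2 and 3. The groups did not overlap, but aged mouse 2 lay only 0.057 above young mouse 2 on the log2 scale. The means were 2.48 ± 0.81 and 4.31 ± 1.04 (SD, n = 3 each), a log2 fold change of 1.83 (SE 0.60, 95% interval 0.41 to 3.26) or 3.57-fold (1.33 to 9.55), which did not pass the test (adjusted p = 0.257). The probe was printed in 10 spots on each array, and the SD between its spots within an array was 0.041 to 0.077, which covers the spots of 1 hybridisation and not the extraction or labelling of the RNA. Under all 19 alternatives its log2 fold change lay between 1.38 and 2.70 with an adjusted p of at least 0.190. A second probe, for another transcript of the gene, was well above background on 1 young and 1 aged array only and was not tested.

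Cdkn1b, which encodes the Cip/Kip inhibitor p27, had a lower mean in aged mice. Its level was 3.30, 3.39 and 3.47 in young mice and 2.32, 2.50 and 1.91 in aged mice. Every aged mouse lay below every young mouse, with a gap of 0.80, and the young mice were tightly grouped. The log2 fold change was -1.14 (SE 0.20, 95% interval -1.61 to -0.68), or 2.21-fold lower (1.60 to 3.06), and did not pass the test (adjusted p = 0.101). It lay between -1.27 and -0.98 under the 19 alternatives, with adjusted p from 0.0647 to 0.303.

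**Figure D3:**
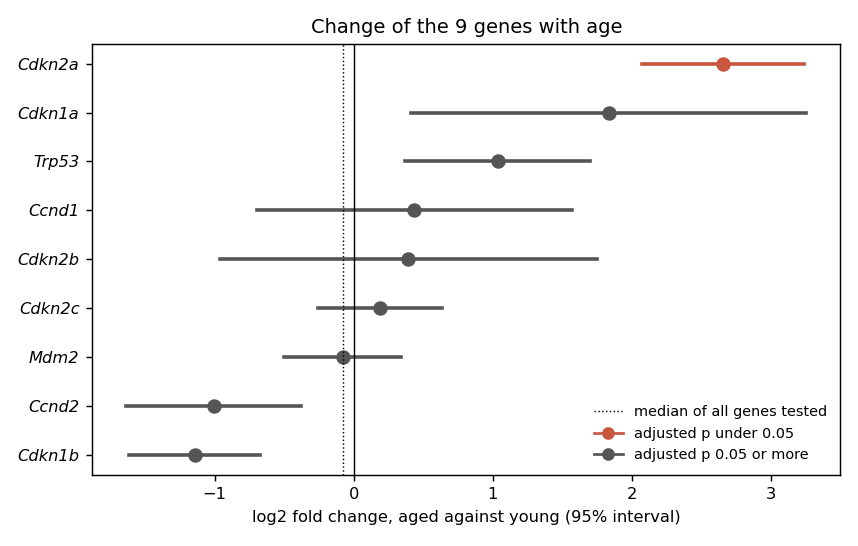
Log2 fold change of each of the 9 genes in aged against young mice (points) with its 95% interval from limma (lines), from -1.14 for Cdkn1b to 2.66 for Cdkn2a. The dotted line is the median over all genes tested, -0.08, and the red point and line mark the gene with an adjusted p under 0.05, Cdkn2a.

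The D-type cyclins are the partners of the kinases that the Ink4 proteins block. Ccnd2 was at -0.03, -0.29 and 0.67 in young mice and -0.98, -0.74 and -0.94 in aged mice. The aged mice all lay below the young mice, with a gap of 0.46, and young mouse 3 was the highest. The log2 fold change was -1.01 (SE 0.27, 95% interval -1.64 to -0.38), or 2.01-fold lower (1.30 to 3.11), and did not pass the test (adjusted p = 0.192). Ccnd1 was at -0.30, -0.46 and 1.11 in young mice and -0.03, 0.60 and 1.10 in aged mice. Here the groups overlapped, because young mouse 3 was as high as aged mouse 3, and the log2 fold change was 0.44 (SE 0.48, 95% interval -0.70 to 1.57, adjusted p = 0.692). With the row of the slide as a block it was -0.15.

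Trp53, which encodes the stress-activated transcription factor p53, was at -2.22, -2.51 and -3.03 in young mice and -1.80, -1.71 and -1.14 in aged mice. The groups were separated by 0.42, with aged mouse 3 the highest and young mouse 3 the lowest. The log2 fold change was 1.03 (SE 0.28, 95% interval 0.37 to 1.70), or 2.05-fold (1.29 to 3.24), and did not pass the test (adjusted p = 0.196). With the normexp background correction, whose offset narrows differences between dim signals, it was 0.58. Mdm2, both a target of p53 and its ubiquitin ligase, was at 5.27, 5.36 and 5.32 in young mice and 5.51, 5.05 and 5.16 in aged mice. Aged mouse 1 lay above all young mice and the other two below them, and the log2 fold change was -0.08 (SE 0.18, 95% interval -0.50 to 0.34, adjusted p = 0.851). Its sign turned under 3 alternatives, to 0.03 with quantile normalization, 0.19 with the row of the slide as a block and 0.01 without aged mouse 2.

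Other genes of the same pathways were counted from lists, and none of the lists of cell cycle or p53 genes held a gene that passed the test by limma. The counts by direction stand against 8622 higher and 12278 lower means over all genes tested, so lower means were the more common. Of the other CDK inhibitors, 2 of 3 were tested and both had lower means, 1 with an unadjusted p under 0.05, Cdkn2d (p19Ink4d), at a log2 fold change of -0.50 (adjusted p = 0.333). Of 17 cyclins, CDKs and CDK phosphatases, 10 were tested, 4 with higher and 6 with lower means. An unadjusted p under 0.05 was reached by 0 of the higher and 2 of the lower genes, the third D-type cyclin Ccnd3 at -0.75 (adjusted p = 0.150) and Ccne1, which drives entry into S phase, at -0.88 (adjusted p = 0.308). Among 12 of 13 pocket protein and E2F genes, 7 were higher and 5 lower, 2 and 0 of them with an unadjusted p under 0.05, with the retinoblastoma gene Rb1 at 0.63 (adjusted p = 0.211).

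Upstream of p53, 13 of 14 regulators were tested, of which 6 had higher and 7 lower means, 1 and 2 of them with an unadjusted p under 0.05. Trp53bp1, which takes part in the DNA damage response, was at a log2 fold change of 0.65 (adjusted p = 0.259), and the p53 relative Trp73 was at -0.54 (adjusted p = 0.275). Among p53 targets other than Cdkn1a and Mdm2, 28 of 30 were tested, 17 higher and 11 lower (median 0.14), and 6 higher and 1 lower had an unadjusted p under 0.05. Gadd45a, a growth arrest gene also induced by denervation, was at 1.14, 1.51 and 0.52 in young mice and 3.25, 3.25 and 4.36 in aged mice. All aged mice lay well above the young mice, and its log2 fold change of 2.57 (SE 0.38) had an adjusted p of 0.067, which was under the threshold with the normexp correction (0.0446) and with a mean-variance trend (0.0434). Gdf15, a stress-induced secreted factor, had a log2 fold change of 1.71 (adjusted p = 0.214). Its signals were dim in young mice (-3.96, -3.66 and -2.87), and its log2 fold change was as low as 0.80 under the 19 alternatives.

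Polycomb proteins keep the Cdkn2a locus silent in dividing cells. Of 13 polycomb and other Ink4 regulators 12 were tested, 3 with higher and 9 with lower means (median -0.19), none past the threshold and 1 lower with an unadjusted p under 0.05. The methyltransferase gene Ezh2 was at a log2 fold change of -0.62 (adjusted p = 0.252). All 11 genes of p27 and cyclin D turnover were tested, of which 6 were higher and 5 lower (median 0.00), none past the threshold and 2 lower with an unadjusted p under 0.05. Among them Gsk3b, a kinase that marks D-type cyclins for degradation, was at -0.73 (adjusted p = 0.285) and Rnf123, a ubiquitin ligase of p27, at -0.40 (adjusted p = 0.321).

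Factors secreted by senescent cells were the only one of these 9 lists with genes past the threshold. Of 25 such genes 16 were tested, 10 with higher and 6 with lower means, and Ccl8 and Il1b had an adjusted p under 0.05. Il1b was kept by the filter only through the aged arrays, and of the 15 others 9 were higher, 6 lower and 1 past the threshold. Ccl8, a chemokine that draws monocytes, was at -1.52, -2.43 and -2.78 in young mice and 1.28, 1.28 and 1.57 in aged mice, which gave a log2 fold change of 3.62 (SE 0.33, adjusted p = 0.0228). Il1b, which encodes the cytokine interleukin-1 beta, was not well above background on any young array and was well above it on all 3 aged arrays, where its mean was -2.81. On the processed signals it was at least 2.66-fold higher in aged mice (adjusted p = 0.0238), taking as the bound for young mice the dimmest probe called well above background on each array or the probe's own signal where that was higher. That bound and p rest on young signals at background, and with the normexp correction the difference was 0.60 on the log2 scale (adjusted p = 0.169). The offset of that correction narrows differences between dim signals, here and in the median of the list. The median of the list was 1.03, also with Il1b at its bound, and it was 0.35 with the normexp correction, 0.51 with the row of the slide as the block, 0.50 without aged mouse 3 and 0.0077 over genes well above background on all 6 arrays, a filter that drops Il1b and other genes dim in young mice. Neither gene passed the test with the row of the slide or the replicate number as the block, without the filter on dim probes, without young mouse 2, without aged mouse 2 or without aged mouse 3, and 1 of the 2 passed without young mouse 1 or without young mouse 3. The remaining senescence genes (12 tested) had 3 higher and 9 lower means, a median of -0.28, and none past the threshold (1 lower at an unadjusted p under 0.05).

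**Figure D4:**
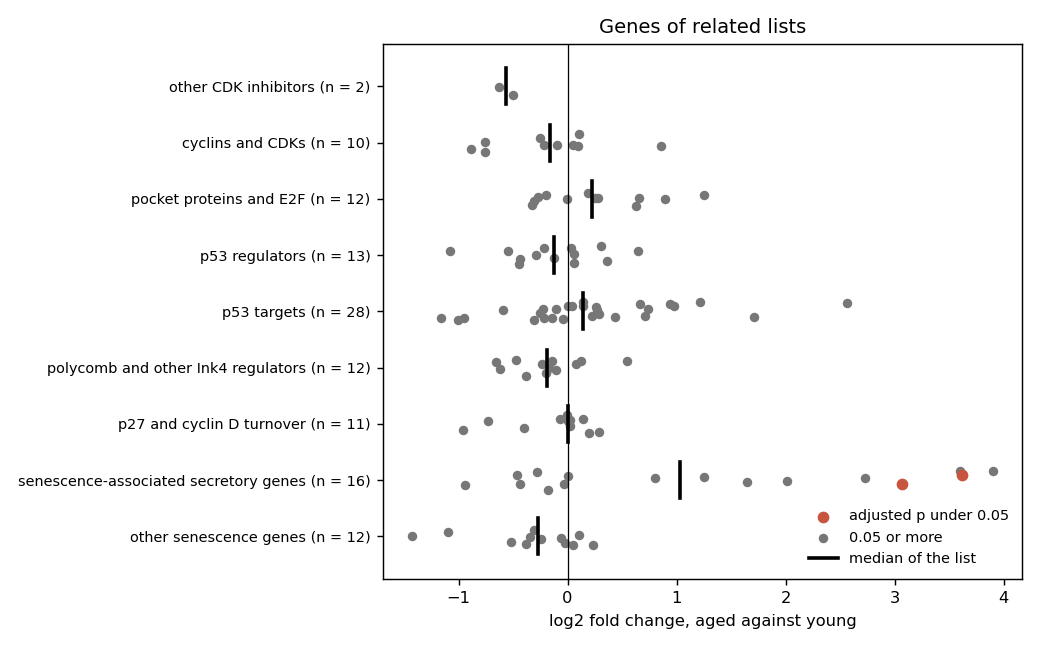
Log2 fold change in aged against young mice for the tested genes of the 9 related lists (1 point a gene, scattered vertically for visibility; a black bar for the median of each list). The 2 red points, with an adjusted p under 0.05, are Ccl8 and Il1b (plotted at its measured difference, 3.07, although it was not well above background in young mice). The median of the secretory list was 1.03 and that of its genes well above background on all 6 arrays 0.0077.

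Markers of cells that whole muscle could hold differed between the ages beside Cdkn2a, and their part in its rise was not tested. Of 12 proliferation markers 7 were tested, none had an unadjusted p under 0.05, their median was 0.04, and Top2a, Ccnb1, Cdk1, Tyms and Bub1 were not kept by the filter on dim signal. Of 9 markers of denervated fibres 8 had higher means, all with an unadjusted p under 0.05 and none past the threshold. Gadd45a, counted above among the p53 targets, was among these 8. One of the 8, Chrng, was well above background on no young array and all 3 aged arrays, and the median was 1.77, or 1.65 with Chrng at its bound. Their summed level, in multiples of the 75th percentile, was 14.2 to 16.3 in young mice and 38.4 to 90.1 in aged mice. Of 5 neutrophil markers tested 4 had higher means and S100a8 and S100a9 rose. Of the others, Retnlg was well above background on no young array and all 3 aged arrays, Csf3r was at 7.07 in young and 7.11 in aged mice, and Camp had a log2 fold change of -0.42 (adjusted p = 0.282). Their summed level, most of it Csf3r, was 134 to 138 in young and 143 to 167 in aged mice, and Ly6g, Ngp and Mmp8 were not kept by the filter. In aged mouse 1 Csf3r was at 6.93, below every young mouse.

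Of 4 epithelial markers tested 3 had higher means in aged muscle and Krt18 rose (summed level 0.61 to 1.03 and 12.7 to 39.0), while Epcam, Cdh1 and Krt5 were not kept by the filter and Krt8, one of the 3, was well above background on no young array. Fibroblast markers, by contrast, had lower means in 6 of 7, none past the threshold and 2 with an unadjusted p under 0.05 (summed level 331 to 383 and 152 to 289), and Schwann cell markers in 6 of 7, with Prx past the threshold (19.8 to 37.2 and 17.7 to 32.7). All 6 erythrocyte markers tested were lower, none past the threshold and 5 with an unadjusted p under 0.05 (548 to 793 and 245 to 390). Macrophage markers were higher in 5 of 7, with none past the threshold, 2 with an unadjusted p under 0.05 and summed levels of 32.4 to 39.3 and 34.7 to 36.5. In the satellite cell, lymphocyte, endothelial, adipocyte and muscle fibre lists no gene passed the test, and the medians lay between -0.37 and -0.10. The summed level was 77.1 to 106 in young and 54.6 to 70.3 in aged mice for endothelial markers. For adipocyte markers it was 118 to 129 and 90.8 to 117. The summed levels of the satellite cell, lymphocyte and muscle fibre lists overlapped between the ages.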

How the data were processed

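Messenger RNA of gastrocnemius muscle was measured on 6 single-colour Agilent arrays, 1 a mouse, 3 a group. The authors deposited scanner files with the intensity of each spot as Agilent Feature Extraction wrote it. The file headers name version 11.0.1.1 and the submitters' processing notes version 9.5. The values deposited in the series matrix equal these processed intensities. Taking log2 and subtracting log2 of the 75th percentile of the array were steps of the re-analysis. The methods name no test for the arrays.

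Of 59305 spots that were not controls, 161 to 212 per array were outliers and were left out. Spots of a probe were averaged on the log2 scale. Probes were kept when well above background on at least 3 arrays (most of their spots carrying the flag), and a gene was represented by its brightest kept probe. Of 55681 probes, 28325 were named by accession through RefSeq (GRCm38.p6), and the others kept their own identifier. Groups were compared with limma 3.58.1 (lmFit and eBayes, R 4.3.3), adjusted by Benjamini-Hochberg over 20900 genes at 0.05. The script was tested on simulated data. Arrays have no read depth, and their number limits the precision: an exact two-sided permutation test of 3 against 3 cannot go below 0.1.

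The 9 genes and all lists were chosen with earlier results of these data known, so counts over them are descriptions. Beyond the 9 genes, from each list the genes past the threshold were named or, where none passed, the 2 with the largest difference among those with an unadjusted p under 0.05, separate groups and a probe that cleared background on every array. The 19 alternatives varied the background correction (normexp with offset 50 on the median spot and background signals), the normalization, the filter, the probe, the variance model, blocks and the mice included. Tables were handled with Python 3.11.15 and pandas 2.3.3.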

Additional observations from a re-analysis of the deposited data

How the results depend on the processing

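Cdkn2a kept its direction under all 19 alternatives and passed the threshold in 11 of them. Among the 11 are the series matrix values and the inclusion of saturated probes. Neither could change the fit, since the values were equal and no spot was saturated. The number of the 9 genes past the threshold was 0 without the filter on dim probes, with the slide row as a block and with the replicate block, and 0 to 1 when each mouse was left out in turn. Over all genes, 8 passed without the filter, 32 among probes well above background on all 6 arrays, and 5 with the replicate block, against 52. Leaving out 1 mouse gave from 1 gene (without aged mouse 3) to 193 (without aged mouse 1). The labels give no pairing of the mice by replicate number. Deviations from the group mean correlated at -0.06, -0.27 and 0.03 for equal numbers and at -0.21 to 0.35 for unequal numbers. With 3 mice a group, such values cannot show whether mice with equal numbers were handled together. Values that changed sign were those of Cdkn2b (-0.83), Cdkn2c (-0.063), Ccnd1 (-0.15) and Mdm2 (0.19) with the slide row as a block, which by construction leaves aged mouse 1 alone against the young mice. Mdm2 also changed sign with quantile normalization (0.028) and without aged mouse 2 (0.014), and the cause was not tested. Scaling to the median moved the median of all genes from -0.08 to -0.21, and none of the 9 genes changed direction under it. Il1b lost its call with normexp (0.60, adjusted p = 0.169), and both it and Ccl8 lost theirs without the filter, with either block, without young mouse 2 and without aged mouse 2 or 3, Il1b also without young mouse 1 and Ccl8 without young mouse 3. The dim signals of Cdkn2a, Trp53, Gdf15 and Il1b in young mice limit how well their fold changes are known.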

Other observations

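Several genes of the same pathways varied more between mice than between ages, in an order that did not follow the groups. These genes were chosen after their values were seen, and the pattern was not tested. Ddit4, a stress-induced inhibitor of mTORC1 signalling, was at 6.38, 7.51 and 2.70 in young mice 1, 2 and 3 and at 7.21, 3.00 and 2.90 in aged mice 1, 2 and 3. Sesn1, another p53 target, was at 2.57, 3.37 and 1.86 in young mice and 4.50, 1.70 and 1.71 in aged mice, and Foxo1, a transcription factor active in fasting, at 4.81, 4.27 and 2.34 in young mice and 4.81, 3.56 and 3.02 in aged mice. In all 3 genes, the 3 highest mice were young 1, young 2 and aged 1. For Cdkn2b and Ccnd1 the same 3 mice were the lowest, and within the young group young mouse 3 had the lowest Cdkn1a and the highest Ccnd2. The log2 fold changes with age were -1.16 for Ddit4, 0.04 for Sesn1 and -0.01 for Foxo1, with adjusted p of 0.751, 0.984 and 0.996.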
